A study of Mus musculus with 4 samples.

Results

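The small leucine-rich proteoglycans are a family of secreted matrix proteins, and 7 of their genes were taken by symbol from the 12408 genes in the files: decorin (Dcn), biglycan (Bgn), asporin (Aspn), lumican (Lum), fibromodulin (Fmod), Prelp and osteoglycin (Ogn). All 7 were listed in each of the 4 libraries. The libraries measured RNA of mouse hearts by sequencing, and each came from a mouse of the C57BL/6 strain at 3 months of age. Both CT libraries came from mice with floxed WW45 (genotype WW45 flox/flox), the Hippo pathway scaffold listed as Sav1. Both cKO libraries came from mice that also carried alpha-MHC-CRE, a Cre recombinase driven by a promoter active in cardiomyocytes. In each genotype 1 mouse gave the baseline library and another, after 4 weeks of transverse aortic constriction (TAC), the TAC library. The constriction loads the left ventricle with pressure. Floxed WW45 was thus common to all 4 mice, the Cre transgene and the deletion came together, and no library is labelled as sham-operated. With 1 library per group, each comparison of 2 libraries compares those libraries and has no replicate check.

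Each protein of this family folds its leucine-rich repeats into a curved solenoid that binds collagen and controls how fibrils grow in width and spacing. Decorin, biglycan and asporin form one class, of which the first 2 named carry chondroitin or dermatan sulfate chains. Lumican, fibromodulin and Prelp form another, with keratan sulfate on lumican and fibromodulin, and osteoglycin belongs to a further class. Several members also bind TGF-beta or signalling receptors. In the heart their messages come mainly from fibroblasts, cells in which the alpha-MHC promoter is not active.

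The libraries held between 1587840 and 2796547 reads recovered from the deposited values, and the median gene had 30 to 48 reads. Sav1 stood at 49.3 CPM (counts per 1000000 reads) in CT and 39.8 in cKO at baseline, and at 35.4 and 46.2 under TAC. The TAC library labelled cKO was thus the higher of its pair, with overlapping intervals (27.7 to 44.7 in CT and 36.9 to 57.2 in cKO). The baseline intervals overlapped too (41.3 to 58.4 in CT and 30.7 to 50.7 in cKO). Gene-level values cannot show whether floxed exons were lost, so genotypes are named as labelled. All 11 cardiomyocyte markers were listed, with a summed level of 108510 to 142245 CPM, which matches the labelled tissue. Each member had whole numbers of reads in every library (within 0.01), so none showed reads divided with another gene. Intervals here and below are 95% counting intervals, which leave out the variation between mice and treat reads as independent molecules.

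The genes lie in known family clusters, and their starts frame the results that follow. On the mm10 assembly Dcn (chromosome 10, 97479609 to 97518143) and Lum (97565128 to 97572703) are 46.98 kb apart on the forward strand. Aspn (chromosome 13, 49544443 to 49567565) and Ogn (49608046 to 49624501) are 40.48 kb apart, also on the forward strand, with another family gene, Omd, between them and Ecm2 just before Aspn. Prelp (chromosome 1, 133910304 to 133921414, reverse strand) and Fmod (134037254 to 134048277, forward strand) are 115.8 kb apart. Bgn is on chromosome X (73483602 to 73495933). RefSeq start windows on the GRCm38.p6 assembly were matched for 5 of the 7 genes, and the 250 bases before the start are shown for 3 of them, written 5′ to 3′ along the gene. Aspn and Ogn are shown because they share a cluster and had different TAC ratios in both genotypes, and Fmod because its TAC ratio was the largest of the 7 in both genotypes. Capitals mark every match to the motifs searched on both strands: the TEAD motif GGAATG, the TATA box TATAAA, the SMAD motif CAGACA and the AP-1 motif TGANTCA.
Aspn (chr13:49544193-49544442, forward strand): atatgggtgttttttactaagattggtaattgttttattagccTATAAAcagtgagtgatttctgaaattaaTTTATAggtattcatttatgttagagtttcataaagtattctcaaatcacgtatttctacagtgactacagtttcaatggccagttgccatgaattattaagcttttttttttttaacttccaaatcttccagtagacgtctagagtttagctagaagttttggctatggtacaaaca
Ogn (chr13:49607765-49608014, forward strand): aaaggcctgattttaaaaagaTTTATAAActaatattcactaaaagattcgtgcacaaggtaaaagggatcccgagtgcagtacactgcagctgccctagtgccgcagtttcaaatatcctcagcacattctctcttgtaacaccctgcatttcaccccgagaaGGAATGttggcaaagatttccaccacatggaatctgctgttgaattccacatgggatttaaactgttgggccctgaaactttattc
Fmod (chr1:134037004-134037253, forward strand): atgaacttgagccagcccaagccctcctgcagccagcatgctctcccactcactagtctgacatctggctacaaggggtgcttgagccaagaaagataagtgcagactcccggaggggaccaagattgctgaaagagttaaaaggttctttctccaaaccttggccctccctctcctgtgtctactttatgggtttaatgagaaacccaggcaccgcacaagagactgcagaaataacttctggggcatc

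Of these windows, Ogn held the TEAD letters, 86 to 81 bases before the RefSeq start, and so did 12.6% of 32817 RefSeq windows of the same length. The Ogn window ends at 49608014, before the gene start of 49608046 given above. Bases after its RefSeq start matched no annotated Ogn transcript, unlike those of the other member windows. Distances for Ogn therefore hold for the RefSeq start alone. TATA box letters were in the Aspn and Ogn windows and in 12.4% of all windows, with the Ogn match made of 2 overlapping copies on opposite strands. They lay 207 to 202 and 178 to 173 bases before the RefSeq start of Aspn. In the Ogn window they lay 229 to 222 bases before its RefSeq start. The SMAD and AP-1 letters were in none of the 5 member windows, against 17.1% and 6.75% of all windows. A match describes these letters and does not show a site in use.

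Decorin was the most abundant member in every library and fibromodulin the least. Dcn had 1072 CPM in CT and 1392 in cKO at baseline, and 2284 and 2919 under TAC. Both TAC libraries were high for it and both baseline libraries low. Biglycan, the closest relative of decorin in the class, had 185.7 CPM in CT and 387.8 in cKO at baseline and 853.6 and 1157 under TAC, with the same split by surgery. Asporin, which carries a stretch of aspartates in place of a sugar chain and can bind calcium, had 20.02 and 33.6 CPM at baseline and 115.8 and 132.7 under TAC. Its baseline libraries did not overlap its TAC libraries.

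Among the second class, Lum had 22.2 CPM in CT (60 reads) and 50.8 in cKO at baseline, and 129.8 and 115.8 under TAC. Both TAC libraries were above both baseline libraries, and the higher genotype was cKO at baseline and CT under TAC. Prelp, which binds basement membrane heparan sulfate as well as collagen, had 58.6 and 83.8 CPM at baseline and 127.3 and 159.3 under TAC, again without overlap. Fmod, known from tendon and cartilage, had 1 read in CT and 2 in cKO at baseline, against 62 and 53 under TAC. That is 0.371 CPM (interval 0.00938 to 2.07) and 1.22 CPM (0.148 to 4.42) at baseline, and 30.9 CPM (23.7 to 39.7) and 28.8 CPM (21.6 to 37.7) under TAC, so fibromodulin was close to the limit of detection at baseline and well above it under TAC in both genotypes. Ogn, the member outside these classes, had 44.9 CPM in CT and 79.5 in cKO at baseline, and 78.4 and 77.8 under TAC. Only CT baseline was low for it, and its TAC and baseline libraries overlapped.

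Levels were compared between genes only per kilobase of the longest principal transcript in GENCODE M21 (1758 bases for Dcn to 3615 for Prelp). The annotation used for counting is not given in the sources used here. On that scale Dcn led with 610 to 1660 CPM per kb, followed by Bgn with 76.8 to 478. In CT baseline Dcn was 7.94 times the next gene (interval 7.22 to 8.75), and in cKO TAC 3.47 times (3.30 to 3.65). Ogn took the third place in both baseline libraries, at 17.5 and 31.0 CPM per kb, but the sixth in both TAC libraries, at 30.5 and 30.3. The third place under TAC went to Lum in CT (53.0 CPM per kb) and to Aspn in cKO (57.0). Within libraries, Lum and Aspn did not differ beyond counting error in CT baseline, CT TAC or cKO TAC. The same held for Ogn and Prelp in CT baseline and in CT TAC, and for Prelp and Lum in cKO baseline and cKO TAC. Every other pair of neighbours in the order was apart by its counting interval.

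The sum of the 7 genes was 1404 CPM in CT and 2028 in cKO at baseline, and 3620 and 4590 under TAC. In reads this was 0.135% of the CT baseline library and 0.476% of the cKO TAC library. Decorin made up 76.4% of the members' reads in CT baseline (Clopper-Pearson interval 74.98% to 77.7%), 68.6% in cKO baseline (67.0% to 70.2%), 63.1% in CT TAC (62.0% to 64.2%) and 63.6% in cKO TAC (62.6% to 64.6%). Its share was thus lower in both TAC libraries than in either baseline library, although its own level was higher there.

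**Figure D1:**
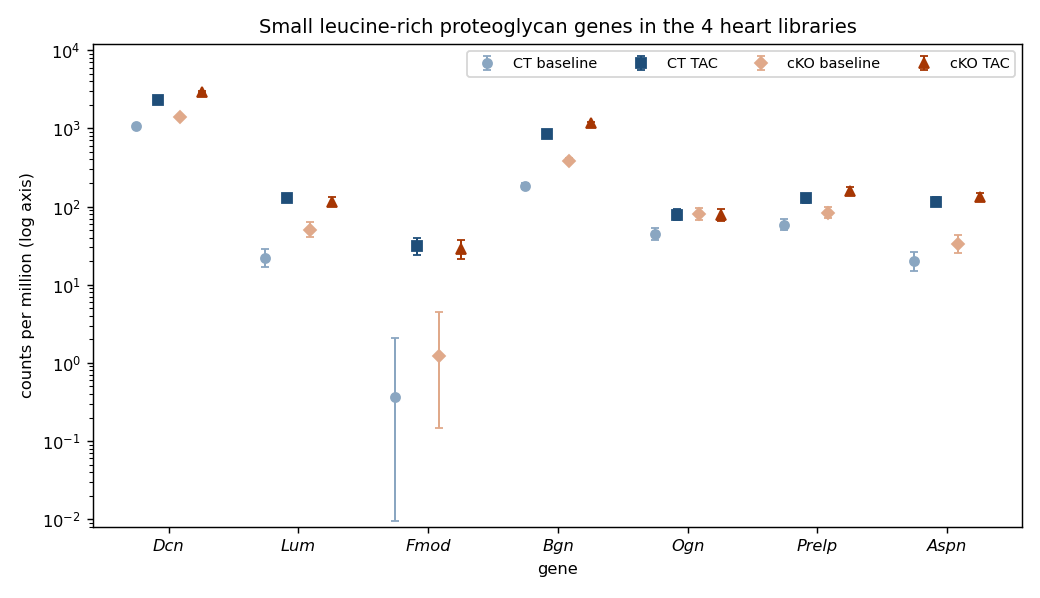
CPM on a log axis for the 7 genes in the 4 libraries, with 1 point per library and bars for the 95% counting interval. For Dcn, Lum, Fmod, Bgn, Prelp and Aspn both TAC libraries lie above both baseline libraries, while Ogn is low in CT baseline and lies between 77.8 and 79.5 in the other 3.

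The comparison of TAC with baseline asked how the family stood in hearts under pressure load. Over both genotypes 6 of the 7 genes rose (limma with a term for genotype, 2 TAC against 2 baseline libraries, Benjamini-Hochberg adjusted p under 0.05 over all genes), against 1.3% of 12408 genes that rose and 0.524% that fell. Fmod rose most, by 4.64 in log2 (SE 0.47, adjusted p = 0.000897 in limma). With 1 baseline read in CT and 2 in cKO, the size of its rise is not fixed by these data, whatever the SE. Aspn rose by 2.23 (SE 0.23, adjusted p = 0.000994 in limma), Bgn by 1.89 (SE 0.19, adjusted p = 0.000864) and Lum by 1.85 (SE 0.29, adjusted p = 0.0108). Dcn rose by 1.08 (SE 0.17, adjusted p = 0.0101 in limma) and Prelp by 1.02 (SE 0.20, adjusted p = 0.031). Ogn stood at 0.38 (SE 0.24, adjusted p = 0.478 in limma) and was not called. For the 6 called genes both TAC libraries were above both baseline libraries, an arrangement that 23.1% of all genes showed. The median change was 1.85 for the members and -0.00 for all genes. In whole heart tissue more cells of a type and more RNA per cell cannot be told apart.

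The fit has 1 residual degree of freedom and draws most of its error from variance shared across genes of like level. Without that mean-variance trend none of the 7 genes was called (adjusted p = 0.297 to 0.649 in limma), and without the genotype term Fmod and Aspn were. With any 1 library left out, fewer of the 7 were called than in the main fit. How many of all genes these fits called is not given here. A loss particular to the members therefore cannot be told from a general loss of calls.

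In CT the TAC library was at least 2-fold above the baseline library, with a counting interval excluding 1, for 6 of the 7 genes, against 6.05% of all genes higher and 4.67% lower by that measure. Fmod had a log2 ratio of 5.19 (ratio interval 14.4 to 3350), Lum 2.52 (4.39 to 7.86), Aspn 2.50 (4.29 to 7.93) and Bgn 2.20 (4.16 to 5.09). Prelp, at 1.11 (1.78 to 2.67), and Dcn, at 1.09 (2.03 to 2.23), were just past 2-fold. Ogn, at 0.80 (1.37 to 2.23), was just short of it.

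The range within the family was wider than counting error. Set against Dcn in the same 2 libraries, which removes any scaling between libraries, the ratio of Lum was 2.74 times that of Dcn (exact interval 2.05 to 3.70), that of Aspn 2.72 times (2.003 to 3.74) and that of Bgn 2.16 times (1.93 to 2.41). Fmod was 39.2 times (6.77 to 1573), with 1 baseline read behind it. These multiples use recovered reads, without the constant added before the logarithm. That constant shrinks the log2 TAC ratio of Fmod in CT from 6.38 to 5.19. Prelp (1.02, 0.828 to 1.26) and Ogn (0.820, 0.640 to 1.05) were not apart from Dcn by this measure. Members of one class therefore did not share a ratio: Bgn and Aspn stood above Dcn in the class of decorin, and Lum and Fmod above Prelp in the other. Genes of one cluster did not share one either, since Lum stood above Dcn on chromosome 10 and Aspn above Ogn on chromosome 13.

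In cKO the TAC library passed the same measure against its baseline for 5 of the 7 genes, against 3.68% of all genes higher and 2.83% lower. Fmod had a log2 ratio of 4.10 (ratio interval 6.21 to 199.6), Aspn 1.96 (2.93 to 5.39), Bgn 1.58 (2.73 to 3.26), Lum 1.18 (1.76 to 2.98) and Dcn 1.07 (1.997 to 2.20). Prelp, at 0.92 (1.55 to 2.35), was just short of 2-fold. Ogn had a ratio of -0.03 (0.766 to 1.25). Here too Bgn (1.42 times the ratio of Dcn, 1.28 to 1.58), Aspn (1.88 times, 1.39 to 2.58) and Fmod (11.2 times, 2.96 to 95.2) stood above Dcn. Lum did not differ from Dcn by counting error in this pair (1.09, 0.836 to 1.43), and Ogn stood below it (0.466, 0.363 to 0.599).

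**Figure D2:**
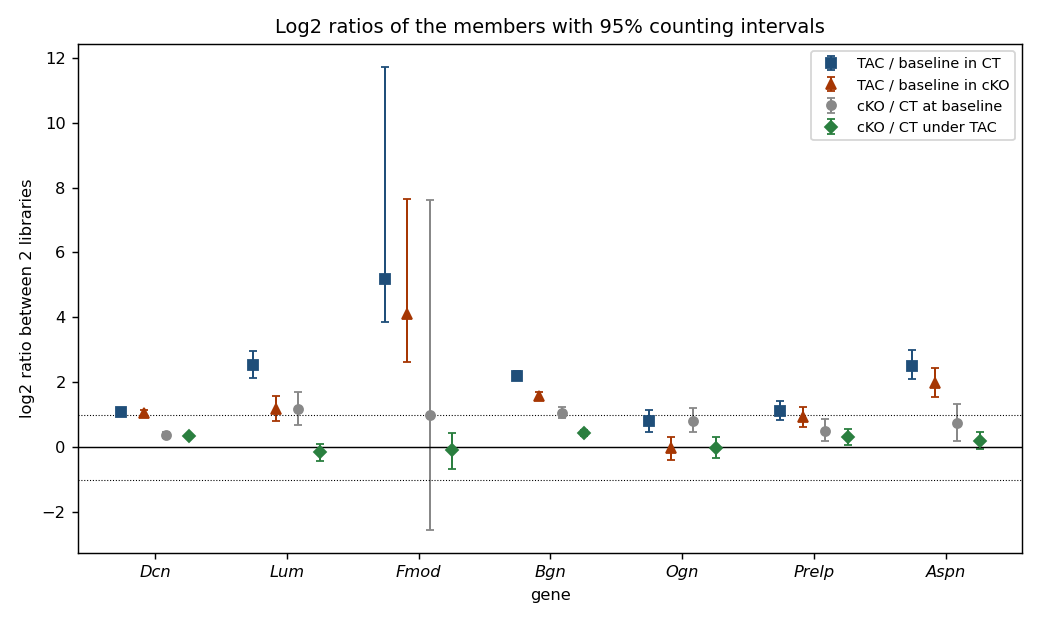
Log2 ratios between 2 libraries for the 7 genes, with 95% counting intervals from the recovered reads and dotted lines at 2-fold. TAC ratios (squares for CT, triangles for cKO) lie at 0.80 or above except for Ogn in cKO, while the ratios of cKO to CT under TAC (diamonds) lie between -0.16 and 0.44.

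The comparison of genotypes asked whether the family differed between the libraries labelled cKO and CT. At baseline all 7 genes were higher in the library labelled cKO, as were 50.3% of all genes, and the interval was above 1 for each except Fmod, against 9.27% of all genes. That share is not a like background, since intervals narrow with depth. The members other than Fmod had 54 to 2892 reads in these libraries, and the median gene 48 in CT and 30 in cKO. Of the 7 genes 2 were at least 2-fold apart, against 3.26% of all genes higher in cKO and 1.79% lower. Lum was 1.17 higher on the log2 scale (ratio interval 1.62 to 3.24) and Bgn 1.06 (1.85 to 2.35). Below 2-fold were Ogn at 0.82 (1.37 to 2.29), Aspn at 0.74 (1.13 to 2.49), Prelp at 0.51 (1.13 to 1.81) and Dcn at 0.38 (1.23 to 1.37). Fmod, with 2 reads against 1, could not be placed (0.99, interval 0.172 to 194.7). The members' median was 0.82 and that of all genes 0.00.

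Macrophage markers and activated fibroblast genes were also higher in this pair. Of 10 macrophage markers 6 passed, all higher, and their summed level was 445 CPM in CT baseline against 1017 in the library labelled cKO. Of 12 activated fibroblast genes 8 passed, all higher, with sums of 262 and 963 CPM. Fibroblast markers summed to 2832 and 3492 CPM, with 4 of 13 passing, all higher, while none of 9 endothelial or 11 cardiomyocyte markers passed. Their part in the result was not tested.

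Under TAC no member was 2-fold apart between the genotypes, against 2.93% of all genes higher in cKO and 2.09% lower. Bgn was 0.44 higher (ratio interval 1.27 to 1.45), Dcn 0.35 (1.23 to 1.33) and Prelp 0.32 (1.05 to 1.49), each with an interval above 1, as 9.50% of all genes had. This share, too, depends on depth. Aspn stood at 0.20 (0.953 to 1.38), Ogn at -0.01 (0.786 to 1.25), Fmod at -0.10 (0.633 to 1.37) and Lum at -0.16 (0.741 to 1.07). All 3 erythroid markers in the files passed as higher in the library labelled cKO in this pair, with sums of 737 and 2240 CPM, and their part in the result was not tested. Dcn was higher in the library labelled cKO by a like amount in both states, 0.38 and 0.35. Over both states limma called no member for genotype, and 0.0242% of all genes. At an unadjusted p under 0.05 there was 1 member of 7, against 7.77% of all genes. This was Bgn (0.75 higher, SE 0.19, adjusted p = 0.367 in limma). No member had both cKO libraries above both CT libraries, which 15.4% of all genes had.

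The difference of the TAC ratio between genotypes follows from the same 4 values and had no error estimate between mice. Lum alone had a TAC ratio at least 2-fold larger in CT with an exact counting interval excluding 1 (difference 1.34 log2, ratio of ratios 1.72 to 3.81). Of all genes 3.88% had a larger ratio in CT by that measure and 3.59% in cKO. Ogn differed by 0.83 (1.26 to 2.53) and Bgn by 0.62 (1.35 to 1.77), with intervals above 1 but under 2-fold. Aspn (0.54, 0.946 to 2.27), Prelp (0.19, 0.852 to 1.53) and Dcn (0.02, 0.949 to 1.09) had intervals that included 1, and so did Fmod (1.09, 0.179 to 212). For Lum, Bgn and Ogn the smaller ratio in cKO went with a higher level in the library labelled cKO baseline, a value that both differences share.

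**Figure D3:**
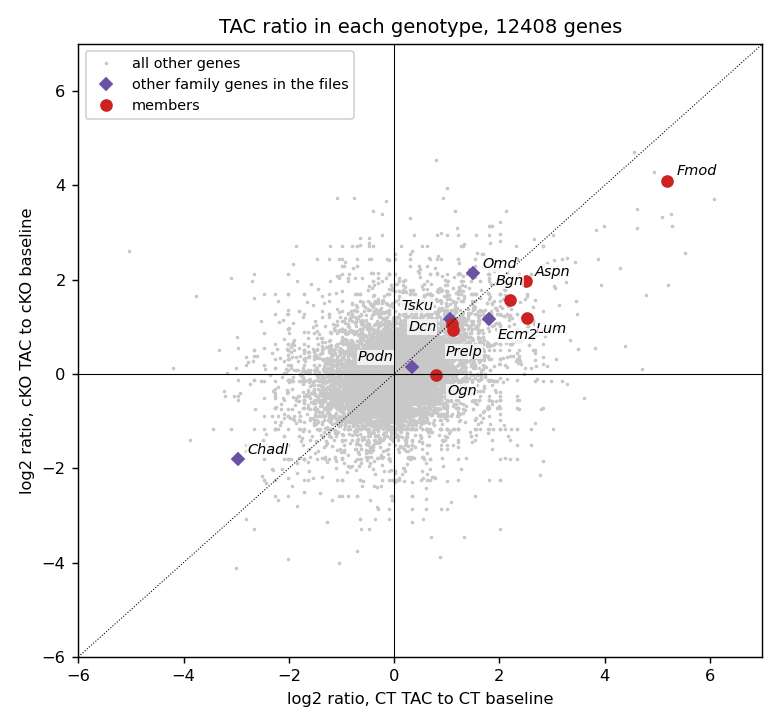
Log2 TAC ratio in CT (horizontal axis) and in cKO (vertical axis) for 12408 genes (grey), with the 7 members as red circles and the 5 other family genes as purple diamonds; the dotted line marks equal ratios. Fmod lies at 5.19 and 4.10, Dcn next to the line, Lum well below it at 2.52 and 1.18, and Ogn on the horizontal axis at 0.80.

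Other genes of the pathway were described from lists, in the order of the proteins' life from synthesis to binding partners. Among the 11 other genes of the family 5 were in the files, and Ecm2 was the one that rose over both genotypes (1.48 log2, SE 0.24, adjusted p = 0.012 in limma). Ecm2, the neighbour of Aspn, had 27.8 CPM in CT and 39.8 in cKO at baseline, and 98.3 and 89.2 under TAC. It passed in both TAC pairs (log2 ratios 1.80 and 1.16). Omd had 1 or 2 reads at baseline and 6 or 8 under TAC, with intervals that included 1 in both genotypes. Podn had 31.9 and 39.1 CPM at baseline and 40.4 and 43.5 under TAC, with neither TAC pair past 2-fold. Tsku had 9 reads in each baseline library and 15 (CT) and 24 (cKO) under TAC, and passed in cKO (log2 ratio 1.18, ratio interval 1.06 to 5.80). Chadl ran the other way, with 9 reads in CT baseline, 2 in cKO baseline and 0 in both TAC libraries. Against a floor of 3 reads per library it was at least 2.23-fold lower in CT TAC, and in cKO no fold can be given.

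Enzymes that build the sugar chains were not called as the core proteins were, but the lists differ in depth. The linker and chondroitin or dermatan sulfate genes summed to 267 to 332 CPM, against 1404 to 4590 for the members. Of 21 genes for the linker and for chondroitin or dermatan sulfate synthesis, limma called none for TAC (4 at an unadjusted p under 0.05), and their median log2 ratio was 0.22 in CT and 0.32 in cKO. The most abundant, Chpf, stood at 0.24 over both genotypes (SE 0.23, adjusted p = 0.656 in limma). In the CT pair 3 were at least 2-fold higher (Chsy1, Chpf2 and Ust) and Chst3 was lower. Ust had 1 read in CT baseline and 7 in CT TAC, and Chst3 had 13 and 2. In the cKO pair Chpf2 (1.44 in CT and 1.00 in cKO) and Chst12 (2.24, from 5 and 30 reads) were higher and B3gat3 was lower (-1.16). Of 7 genes for keratan sulfate synthesis and tyrosine sulfation limma called none (0 at an unadjusted p under 0.05). Chst1 was higher in the cKO pair, with 2 reads at baseline and 12 under TAC. Of 16 other proteoglycans limma called 1 for TAC, glypican 1 (Gpc1), which fell by 0.98 (SE 0.17, adjusted p = 0.0168). The median TAC ratio of these 16 was 0.18 in CT, where 2 were higher and 2 lower, and 0.48 in cKO, where 1 was higher and none lower. For genotype limma called 1 of them, Prg4 (lubricin), which was 1.51 higher in the libraries labelled cKO (adjusted p = 0.0255) and passed in both genotype pairs.

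Most genes of the collagens that these proteins bind rose too. Of 10 collagen genes 7 rose over both genotypes in limma and none fell. In the CT pair all 10 were at least 2-fold higher (median 2.46), in the cKO pair 6 (median 1.09), and at baseline 6 were higher in the library labelled cKO (median 1.26). Col3a1 had log2 TAC ratios of 3.48 in CT and 1.27 in cKO, Col1a1 2.63 and 1.15, and Col1a2 2.64 and 1.42. Among proteases and their helpers, Mmp2 rose by 1.32 (SE 0.18, adjusted p = 0.00562 in limma) and Pcolce2, an enhancer of procollagen processing, by 1.12 (SE 0.25, adjusted p = 0.0477). Htra1, a secreted serine protease, fell by 1.03 (SE 0.23, adjusted p = 0.0485 in limma), and the other 7 genes of that list were not called. None of the 6 TGF-beta ligand and receptor genes and none of the 16 receptor genes for soluble family members was called for TAC in limma, with 2 of each list at an unadjusted p under 0.05. Tgfb1 stood at 0.76 (SE 0.23, adjusted p = 0.126) and Tlr4 at 0.57 (SE 0.24, adjusted p = 0.285). In the CT pair Tgfb2 (log2 ratio 1.65, from 9 and 23 reads) and the receptor gene P2rx7 (1.85) were at least 2-fold higher. Tgfbr3 was lower in that pair (-1.40), where 6.05% of all genes were higher and 4.67% lower. No gene of these 2 lists passed in the cKO pair.

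Fibroblast markers outside the family covered a wide range. Of 13 in the files 3 rose in limma (Pi16, Mfap5 and Cd248), 7 had an unadjusted p under 0.05, and the median change was 0.86. In the CT pair 7 were at least 2-fold higher and 1 lower, and in the cKO pair 4 were higher and none lower. Among those not called, Meox1 stood at 2.03, Tcf21 at 1.32, Pdgfra at 0.37, Ddr2 at 0.04, Gsn at -0.23 and Scara5 at -0.51. Their summed level was 2832 CPM in CT and 3492 in cKO at baseline, and 3278 and 3768 under TAC, most of it from Gsn. Of the 12 activated fibroblast genes 7 rose, with sums of 262 and 963 CPM at baseline and 2122 and 3386 under TAC. Acta2, among the 3 most abundant on that list, was not called for TAC (-0.30, SE 0.17, adjusted p = 0.418 in limma). It was called for genotype, 1.58 higher in the libraries labelled cKO (adjusted p = 0.00913 in limma). The activated fibroblast sum was higher under TAC in both genotypes, as the members' sum was. The fibroblast marker sum was higher by less in proportion, but Gsn, most of that sum, was lower in both TAC pairs (log2 ratios -0.22 and -0.24). The sum therefore says little about the other fibroblast markers. The median log2 TAC ratio of the 13 was 1.12 in CT and 0.52 in cKO, against 2.20 and 1.18 for the members. The part of these genes in the result was not tested. Of tendon, cartilage and valve genes 4 of 11 were in the files, and limma called only Comp, which is also on the activated fibroblast list, as risen. In the CT pair 3 of these 4 were at least 2-fold higher (Comp, Sox9 and Tnmd) and Scx was lower. In the cKO pair 2 were higher (Comp and Sox9). From CT baseline to CT TAC, Sox9 had 3 and 14 reads, Tnmd 0 and 8, and Scx 26 and 8. Endothelial markers (1450 to 1613 CPM summed) and Schwann markers (7.49 to 13.2) held no gene that passed between TAC and baseline in either genotype. No adipocyte marker was listed, and Wt1 was the sole mesothelial marker, at 0.998 to 4.28 CPM. Mural markers summed to 681 to 952 CPM, and 1 of 8, Abcc9, fell. Of 10 macrophage markers limma called none for TAC (2 at an unadjusted p under 0.05). Of 11 cardiomyocyte markers 1, Ryr2, fell, and of the 3 atrial markers in the files 1, Nppa, rose. The atrial markers Myl7, Sln and Bmp10 were not in the files, and atrial content was not judged. Of the 5 skeletal muscle markers in the files (8.90 to 14.5 CPM summed) and the 3 erythroid markers limma called none for TAC, with 1 and 0 at an unadjusted p under 0.05.

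Likeness of pattern was measured as the distance between log2 profiles over the 4 libraries, each centred on its own mean, among genes with a mean of at least 10 CPM. It describes 4 points and has no test. Within the family Dcn and Prelp were closest (0.117), followed by Lum and Bgn (0.434) and Bgn and Aspn (0.451), and Fmod and Ogn were farthest apart (4.26). Outside the family the profile of Bgn was nearest to Pi16, a fibroblast marker, at 0.0399, and that of Lum to Col1a1 (0.144) and Col1a2 (0.198). Aspn was nearest to Col12a1 (0.144) and Ssc5d (0.214), and Fmod to Wisp2 (0.476) and Thbs4 (0.887). Dcn was nearest to Rcan1 (0.134) and Anxa3 (0.145), Prelp to Anxa3 (0.130) and Medag (0.141), and Ogn to Man2b2 (0.0636) and Tbc1d13 (0.0769). Loxl3, a lysyl oxidase, was second to Pi16 for Bgn (0.267). The mean profile of the 7 genes was nearest to Rasl11b (0.160), Oaf, Crispld2, Htra4 and Pi16 (0.246).

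**Figure D4:**
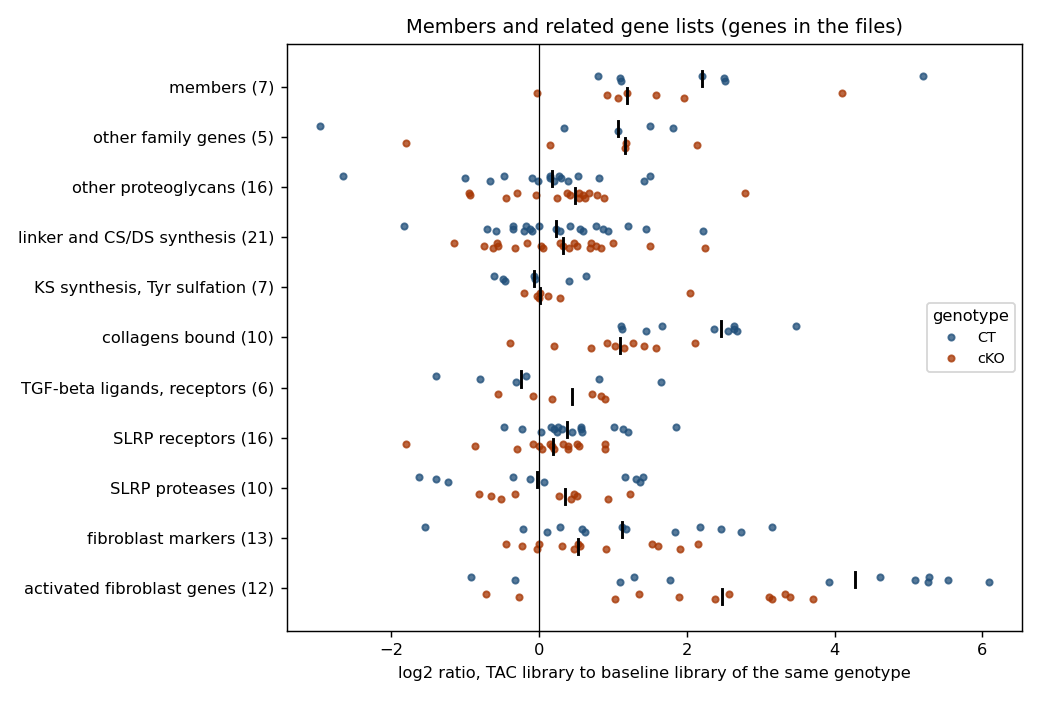
Log2 TAC ratio within each genotype for the members and 10 related lists, 1 point per gene in CT (blue) or cKO (orange), with black bars at the list median and the number of genes in parentheses. The members' medians of 2.20 and 1.18 lie next to those of the collagens (2.46 and 1.09), and those of the 2 sulfate chain synthesis lists between -0.07 and 0.32.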

How the data were processed

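RNA of 4 mouse hearts was sequenced, 1 library per group. The deposited files give log2 CPM (counts per 1000000 reads) for 12408 genes, as read from the values. CASAVA, HISAT2, edgeR and mm10 are named, without versions, in the submitters' processing notes. No counter, annotation or gene filter is given in the sources used here. Values fall on a grid, from which the read number of each gene was recovered after taking off the constant of 0.489 CPM added before the logarithm. One read was worth 0.371 to 0.612 CPM, and 88.6% to 89.0% of genes per library had whole reads.

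Log2 ratios are differences of deposited values, and the added constant shrinks those of low genes. Exact 95% intervals come from rounded reads and effective library sizes. A gene passed at 2-fold or more with an interval excluding 1. The count of 0 was set against 3 reads. limma 3.58.1, run in R 4.3.3 with terms for surgery and genotype and a mean-variance trend, was fitted to all genes. A run on simulated counts came first, with changes equal in both genotypes and the same added spread for every gene. That setting is simpler than these data, so the run does not vouch for the calls. The p-values of limma rest on 1 residual degree of freedom, so they measure little of the spread between mice. Alternatives covered scaling, trend, model terms, thresholds, low values and each library.

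All 7 members were named. Of each list, counts are given, with examples among its 3 most abundant genes and those that passed, and the other family genes in full. Tlr4, Pdgfra, Ddr2, Meox1, Scara5, Chst12, Chsy1, Ust, Chst3, Chst1, Pcolce2, Htra1, Tgfb2, Tgfbr3, P2rx7, Sox9, Tnmd and Scx were named after their values were seen. Nearest genes are the 5 nearest to the mean profile and the 2 nearest to each member. Members and lists were chosen with earlier results of these data known.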

Additional observations from a re-analysis of the deposited data

Results flagged for a closer look

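Effects under the same contrast that point in opposite directions in 2 groups were found for Lum, Fmod and Ogn, each from 1 library per group, and the differences were not tested between mice. The ratio of cKO to CT was 1.17 (log2) at baseline and -0.16 under TAC for Lum, a difference of 1.34. For Fmod it was 0.99 and -0.10, a difference of 1.09 that rests on 1 and 2 baseline reads. For Ogn it was 0.82 at baseline and -0.01 under TAC, and the second value turned to 0.09 when libraries were scaled to total reads, so that both states then pointed the same way. The TAC ratio of Ogn was 0.80 in CT and -0.03 in cKO, and since both contrasts use the same 4 values the difference is again 0.83. The negative value in each case had a counting interval that included equal levels.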

How the results depend on the processing

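The counts of members past 2-fold in the 4 pairs did not change under total-read scaling, median-of-ratios scaling, removal of the added read or a minimum of 20 reads. At 1.5-fold, 7 passed in CT, 6 in cKO, 4 at baseline between genotypes (Ogn and Aspn added), 0 under TAC, and 3 (Lum, Bgn and Ogn) for the difference of TAC ratios. Shares of all genes at 1.5-fold are not given here, so these counts have no background. The 6 TAC calls of limma were the same genes at a mean CPM of at least 5, under both scalings and with log2(CPM + 1). They were 0 without the trend, 2 without the genotype term, and 1 to 4 with 1 library left out: 1 without CT baseline, 2 without cKO TAC, 3 without CT TAC and 4 without cKO baseline. Those fits also drop the genotype term, so that effect enters their error. Shares of all genes called are not given here for the alternative fits. For genotype the count was 0 to 2 with a library left out, 2 (Lum and Bgn) without CT TAC, and 0 under the other settings. Total-read scaling moved log2 ratios by up to 0.10 and turned 1 direction, that of Ogn between genotypes under TAC (-0.01 to 0.09), which had not passed. No paired analysis was possible because each group holds 1 library and the labels give no replicate numbers. Fmod and Omd at baseline, with 1 or 2 reads, are limited by depth.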

Other observations

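The members and the 3 most abundant collagens of the fixed list (Col1a1, Col1a2 and Col3a1) differed in how far they moved in CT. The summed level of these collagens was 325.5 CPM in CT and 987.2 in cKO at baseline, and 2574 and 2395 under TAC. The summed level of the 7 proteoglycan genes was 4.31 times that of the collagens in CT baseline, 2.05 times in cKO baseline, 1.41 times in CT TAC and 1.92 times in cKO TAC. In CT the proteoglycan sum was 2.58-fold and the collagen sum 7.91-fold higher under TAC, while in cKO these were 2.26-fold and 2.43-fold. CT baseline stood apart from the other 3 libraries in this ratio, which is not scaled to gene length. Most of the proteoglycan sum is Dcn.

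Within the length-scaled sum of the 7 genes, Bgn made up 10.4% in CT baseline, 15.4% in cKO baseline, 19.3% in CT TAC and 20.6% in cKO TAC. Ogn made up 2.37% and 2.98% in the baseline libraries of CT and cKO and 1.67% and 1.30% in their TAC libraries.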
